A study of Mus musculus with 6 samples.

Results

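Genes of monocytes and macrophages were followed in mouse bone marrow cultures transformed with the BCR-ABL p185 oncogene. The set was a list of 40 genes, taken by gene symbol, among 22099 gene symbols in the deposited table. It was chosen with earlier results of these data known, so its counts beside the shares of all genes are descriptive. All 40 symbols were found, and 37 of them had at least 1 RPKM in 2 or more libraries. RPKM divides the reads of a transcript by its length and by the depth of the library, so levels of different genes can be set side by side. The 3 genes below that level were Lyz1, Cd163 and Cx3cr1. Just inside it lay Marco and Siglec1, whose second highest library held 1.0 RPKM, while the second highest library of Cx3cr1 held 0.5 RPKM.

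The study sequenced polyadenylated RNA from 6 cultures, 2 in each of 3 groups. The first group was homozygous for a loss of zinc finger 1 of the transcription factor Ikaros (ZnF1-/-, here ZnF1 mutant), the second for a loss of zinc finger 4 (ZnF4-/-, here ZnF4 mutant), and the third was wt. All 3 groups were C57BL/6, came from primary whole marrow transduced at day 0 with a retrovirus that carries BCR-ABL p185 and a yellow fluorescent protein, and were harvested after 14 days in vitro. The labels call the cells pro-B acute lymphoblastic leukaemia and name no sort for the fluorescent protein and no age or number of donor animals. Ikaros zinc fingers 1 and 4 flank the DNA-binding core of the protein and shape which sites it holds.

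Monocytes and macrophages are the phagocytes of the marrow. They depend on colony-stimulating factors, take up debris and antibody-coated particles through scavenger and Fc receptors, and degrade the cargo in lysosomes with cathepsins. They also make the complement protein C1q, lysozyme and apolipoprotein E, and in whole-marrow cultures they can persist as adherent cells beside the growing B-lineage cells.

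The label of the list was checked against the cells named in the sample labels. The summed level of 14 B-lineage genes was 5205 and 4060 RPKM in the ZnF1 mutant, 4656 and 2983 RPKM in the ZnF4 mutant, and 4575 and 3176 RPKM in wt (replicates 1 and 2), and no gene of that list was below 1 RPKM in all libraries. Defining macrophage genes were detected beside them in all 6 libraries, with Csf1r at 12.6 to 36.9 RPKM, Emr1 (the F4/80 antigen) at 6.8 to 24.6 RPKM and Cd68 at 45.1 to 161.5 RPKM. The fractalkine receptor Cx3cr1, a marker of patrolling monocytes, stayed at 0 to 0.6 RPKM, and the haemoglobin scavenger receptor Cd163, a marker of some tissue macrophages, at 0.1 to 0.3 RPKM.

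The ZnF1 mutant cultures held more RNA of these genes than either other group, and the ZnF4 mutant cultures held about as much as wt. The 40 genes together reached 3421 and 3143 RPKM in the ZnF1 mutant, against 1236 and 1227 RPKM in the ZnF4 mutant and 1313 and 1034 RPKM in wt. Multiplied by transcript length, these values made up 0.714% and 0.663% of the reads of the ZnF1 mutant libraries, 0.257% and 0.258% of those of the ZnF4 mutant libraries, and 0.283% and 0.210% of those of wt. Both ZnF1 mutant libraries lay above the other 4, while the ZnF4 mutant and wt libraries overlapped. In bulk RNA, fewer cells of a type and less RNA per cell cannot be told apart.

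**Figure D1:**
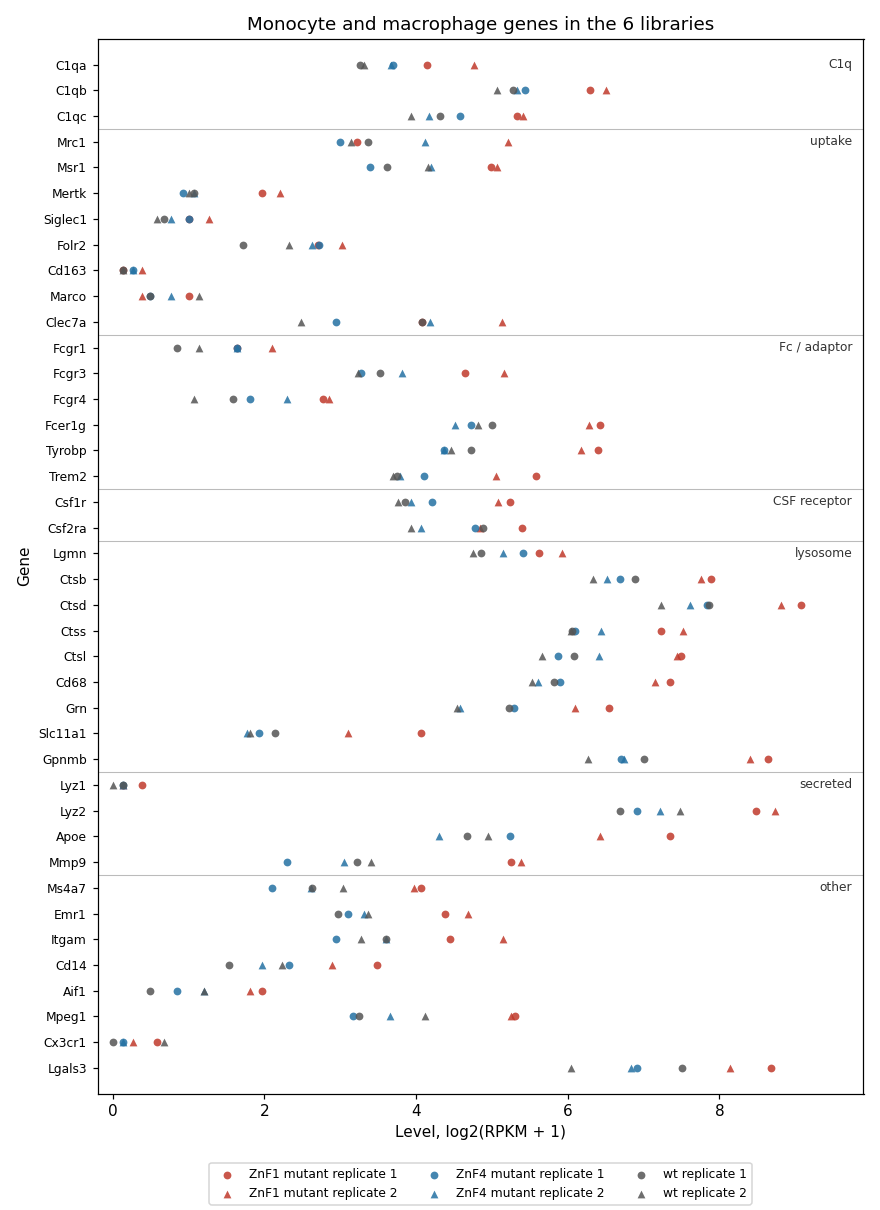
Level of each of the 40 genes in each library on the log2(RPKM + 1) scale, grouped by role, with colour for the group and marker shape for the replicate. In 30 of the 37 tested genes both ZnF1 mutant libraries lie to the right of the other 4 libraries.

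Differences were fitted on log2(RPKM + 1) with limma, over all 11345 genes that passed the level filter, and p-values were adjusted by the Benjamini-Hochberg method over all of these genes, with a call at an adjusted p under 0.05. Between the ZnF1 mutant and wt this fit called 0 of the 37 tested genes and 0 of the 11345 genes (0%), with the lowest adjusted p at 0.0924, shared by 9 of the 37. At an unadjusted p under 0.05 there were 33 of the 37, against 11.3% of all genes. The replicate numbers marked a difference that the 3 groups shared, and with the replicate number as a block in the fit 32 of the 37 rose and 0 fell, against 10.4% of all genes higher and 2.88% lower. The genes without a call in the blocked fit were Mrc1, Siglec1, Marco, Clec7a and Cd14.

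The fitted difference between the ZnF1 mutant and wt was above 0 in 36 of the 37 tested genes, with a median of 1.35 on the log2(RPKM + 1) scale, beside a median of -0.01 over all genes tested. The median over the 37 was 1.27 to 1.40 when any 1 library was left out, and 1.39 without the pair of libraries that held most granulocyte transcripts. In 33 of the 37 both ZnF1 mutant libraries were higher than both wt libraries, against 18.3% of all genes. Both ZnF1 mutant libraries were above all 4 others in 30 of the 37, against 12.3% of all genes. Of the 37, 35 had at least 1 RPKM in 2 or more libraries outside the ZnF1 mutant, and only Siglec1 and Marco did not.

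For the 27 genes with a mean of at least 10 RPKM over the 6 libraries, the ratio of group means in RPKM was 1.61 to 4.53 for the ZnF1 mutant over wt, with a median of 2.76. It lay between 2 and 4 in 24 of the 27. The exceptions were Csf2ra at 1.61, Mmp9 at 4.34 and Apoe at 4.53. For the ZnF4 mutant over wt the same ratio was 0.626 to 1.41, with a median of 1.04.

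**Figure D2:**
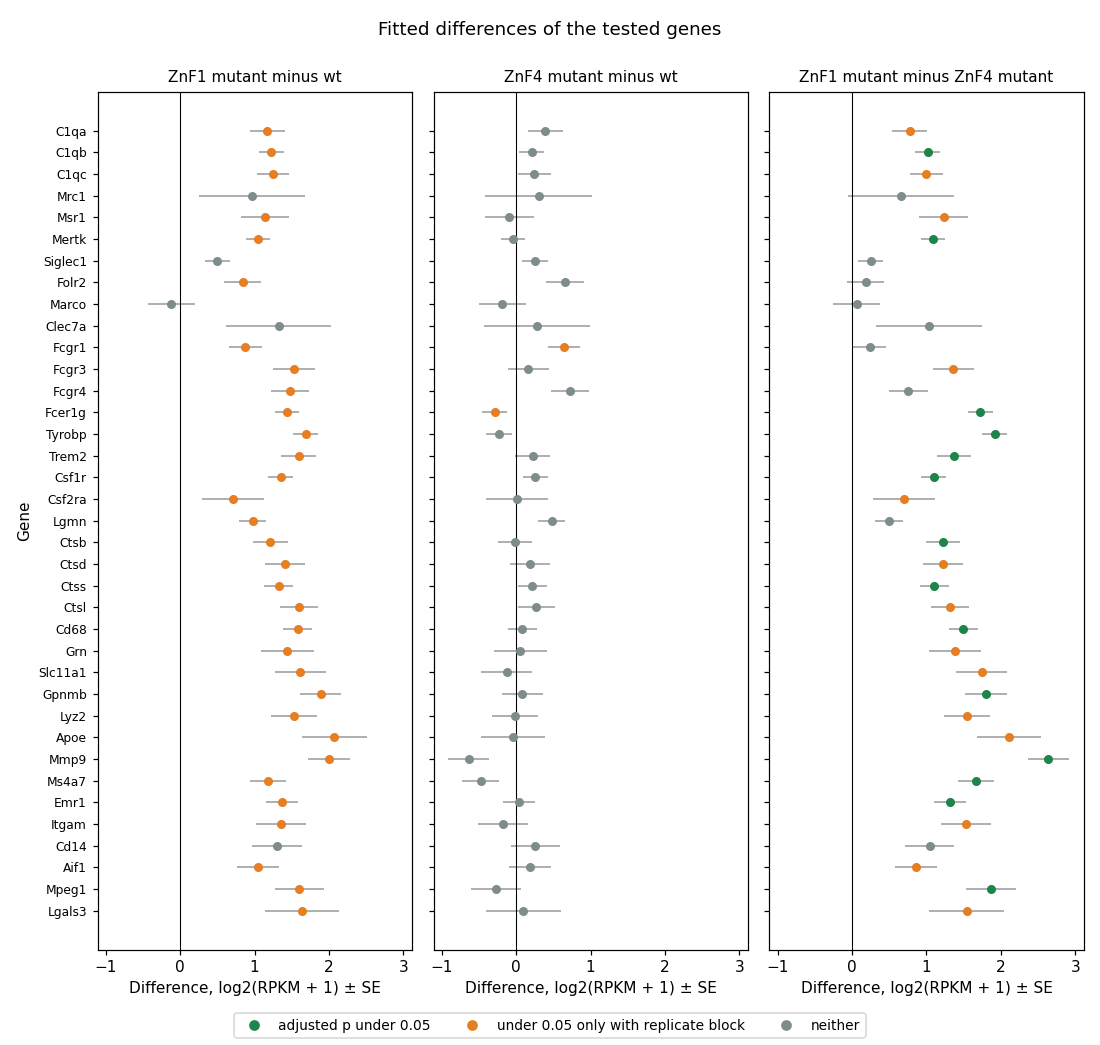
Fitted difference on the log2(RPKM + 1) scale, with its standard error as the bar, for the 37 tested genes in the ZnF1 mutant minus wt (left), the ZnF4 mutant minus wt (middle) and the ZnF1 mutant minus the ZnF4 mutant (right). Green points passed the test without a block (0, 0 and 14 genes), and orange points passed only with the replicate block; the left and middle panels share the wt libraries, and the left and right panels the ZnF1 mutant libraries.

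C1q is the recognition molecule of the classical complement pathway, built from 3 chains whose genes C1qa, C1qb and C1qc lie next to each other, and tissue macrophages are its main source. C1qb, the most abundant chain transcript, had 77.6 and 89.4 RPKM in the ZnF1 mutant, 42.3 and 39.1 RPKM in the ZnF4 mutant, and 37.9 and 32.5 RPKM in wt. C1qc had 39.2 and 41.6 RPKM in the ZnF1 mutant, 22.8 and 17 RPKM in the ZnF4 mutant, and 18.9 and 14.3 RPKM in wt. C1qa had 16.7 and 26.2 RPKM in the ZnF1 mutant, 11.9 and 11.7 RPKM in the ZnF4 mutant, and 8.6 and 8.9 RPKM in wt. In all 3 chains both ZnF1 mutant libraries were above the other 4, and the order C1qb, C1qc, C1qa held in every library. The log2 differences from wt were 1.17 ± 0.23 for C1qa, 1.22 ± 0.17 for C1qb and 1.25 ± 0.22 for C1qc (± SE, 2 libraries a group), and all 3 passed with the replicate block in limma (adjusted p = 0.00761 to 0.0183) and not without it (adjusted p = 0.0924 to 0.119).

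Promoters of the genes were read from RefSeq (build GRCm38.p6) as the 250 bases before each start, which exist in that table for 31 of the 40 genes, with 38 starts. Of the 6 shown, C1qb, C1qc, Trem2 and Cd68 contain GAGGAA, a form of the site of the myeloid factor PU.1, on either strand. Gpnmb and Lyz2, among the most abundant transcripts of the set, do not contain GAGGAA, though both hold the shorter letters GGAA. Capitals mark GAGGAA or its reverse complement TTCCTC, and the pattern TGANTCA, which reads the same on both strands. TGANTCA allows any middle base and so is looser than the AP-1 site, whose middle base is C or G. Its match in Trem2, TGAATCA, is outside that narrower site, while those in Cd68, TGAGTCA, are within it. The sequences run 5′ to 3′ on the strand of the gene.

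C1qb promoter, chr4:136886201-136886450 (minus strand): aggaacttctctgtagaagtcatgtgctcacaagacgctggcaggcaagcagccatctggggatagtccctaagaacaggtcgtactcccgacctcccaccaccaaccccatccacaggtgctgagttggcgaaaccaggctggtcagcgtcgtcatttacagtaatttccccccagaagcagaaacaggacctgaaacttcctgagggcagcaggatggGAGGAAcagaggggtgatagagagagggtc
C1qc promoter, chr4:136892915-136893164 (minus strand): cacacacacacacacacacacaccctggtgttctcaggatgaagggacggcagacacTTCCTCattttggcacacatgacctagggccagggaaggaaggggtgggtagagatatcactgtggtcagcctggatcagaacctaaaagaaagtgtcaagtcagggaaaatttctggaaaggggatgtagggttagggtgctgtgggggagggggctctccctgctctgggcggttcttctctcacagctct
Trem2 promoter, chr17:48346151-48346400 (plus strand): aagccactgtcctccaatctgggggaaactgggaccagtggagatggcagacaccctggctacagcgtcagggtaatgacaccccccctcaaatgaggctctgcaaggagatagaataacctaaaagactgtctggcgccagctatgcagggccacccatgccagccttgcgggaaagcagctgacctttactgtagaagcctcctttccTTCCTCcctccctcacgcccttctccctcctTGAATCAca
Cd68 promoter, chr11:69666171-69666420 (minus strand): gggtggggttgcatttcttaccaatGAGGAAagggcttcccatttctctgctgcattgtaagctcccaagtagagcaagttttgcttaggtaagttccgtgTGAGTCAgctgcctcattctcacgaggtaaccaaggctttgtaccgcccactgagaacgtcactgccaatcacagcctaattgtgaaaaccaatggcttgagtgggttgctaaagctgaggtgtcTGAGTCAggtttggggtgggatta
Gpnmb promoter, chr6:49036268-49036517 (plus strand): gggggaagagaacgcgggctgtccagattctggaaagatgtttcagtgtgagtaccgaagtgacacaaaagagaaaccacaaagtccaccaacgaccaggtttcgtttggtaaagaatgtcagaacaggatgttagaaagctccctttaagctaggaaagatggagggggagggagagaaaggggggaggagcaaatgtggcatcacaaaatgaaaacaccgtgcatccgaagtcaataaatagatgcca
Lyz2 promoter, chr10:117282273-117282522 (minus strand): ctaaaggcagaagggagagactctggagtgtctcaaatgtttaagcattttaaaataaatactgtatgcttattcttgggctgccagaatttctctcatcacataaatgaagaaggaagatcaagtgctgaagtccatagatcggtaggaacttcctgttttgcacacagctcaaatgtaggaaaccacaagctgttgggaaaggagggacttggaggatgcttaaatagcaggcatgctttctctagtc

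On either strand, GAGGAA was present in 20 of the 38 promoters (52.6%), against 23.3% of the 32851 promoters in the table. TGANTCA was present in 4 of the 38 (10.5%), against 6.75% of all promoters. The E-box CACGTG, the core of the site of the lysosomal regulators of the TFEB and MITF family, was present in 3 of the 38 (7.89%), against 6.02% of all promoters, and the 3 belonged to Lgmn, Ctsd and Ctsl. The Ikaros core TGGGAA was present in 7 of the 38 (18.4%), against 21.6% of all promoters. CACGTG can share its end bases with each of the other motifs, which cannot overlap each other, and a match describes the letters only.

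Scavenger and uptake receptors bind lipoproteins, sugars, phosphatidylserine bridges or dead cells. Msr1, the class A scavenger receptor, had 30.7 and 32.6 RPKM in the ZnF1 mutant, 9.5 and 17.4 RPKM in the ZnF4 mutant, and 11.3 and 16.8 RPKM in wt. Mertk, a receptor kinase for the clearance of dying cells, had 2.9 and 3.6 RPKM in the ZnF1 mutant, 0.9 and 1.1 RPKM in the ZnF4 mutant, and 1.1 and 1.0 RPKM in wt. Folr2, a folate receptor of resident macrophages, had 5.5 and 7.1 RPKM in the ZnF1 mutant, 5.6 and 5.2 RPKM in the ZnF4 mutant, and 2.3 and 4.0 RPKM in wt. These 3 were higher in both ZnF1 mutant libraries than in both wt libraries and passed with the block (adjusted p = 0.0117 to 0.0402 in limma), but the ZnF4 mutant overlapped the ZnF1 mutant in Folr2. The log2 difference of Folr2 from wt, 0.84 with all libraries, was 0.54 without wt replicate 1.

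Mrc1, the mannose receptor, and Clec7a, the beta-glucan receptor Dectin-1, did not separate the groups. Mrc1 had 8.3 and 36.1 RPKM in the ZnF1 mutant, 7.0 and 16.3 RPKM in the ZnF4 mutant, and 9.3 and 7.8 RPKM in wt. Clec7a had 15.9 and 34.0 RPKM in the ZnF1 mutant, 6.7 and 17.2 RPKM in the ZnF4 mutant, and 15.9 and 4.6 RPKM in wt. The ZnF1 mutant replicate 2 library, which held the highest granulocyte marker sum, was the highest in both genes, and replicate 1 alone gave a difference from wt of -0.15 for Mrc1 and 0 for Clec7a on the log2 scale. Without that library the fitted difference of Mrc1 from wt was -0.03, against 0.96 ± 0.72 with all libraries.

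Among the low uptake receptors, the sialic acid receptor Siglec1 had 1.0 and 1.4 RPKM in the ZnF1 mutant, 1.0 and 0.7 RPKM in the ZnF4 mutant, and 0.6 and 0.5 RPKM in wt, and did not pass either fit. Marco, a scavenger receptor of marginal zone and alveolar macrophages, had 1.0 and 0.3 RPKM in the ZnF1 mutant, 0.4 and 0.7 RPKM in the ZnF4 mutant, and 0.4 and 1.2 RPKM in wt. It was the 1 tested gene with a fitted difference from wt below 0, at -0.12 ± 0.32, and this sign turned to 0.19 without ZnF1 mutant replicate 2 and to 0.20 without wt replicate 2.

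Fc receptors bind antibody, and the adaptor chains Fcer1g and Tyrobp carry the signalling motif through which Fc receptors and Trem2 act. Fcer1g had 84.6 and 76.6 RPKM in the ZnF1 mutant, 25.5 and 21.9 RPKM in the ZnF4 mutant, and 31.1 and 27.2 RPKM in wt. Tyrobp (DAP12) had 83.0 and 71.1 RPKM in the ZnF1 mutant, 19.6 and 19.6 RPKM in the ZnF4 mutant, and 25.4 and 21.1 RPKM in wt. Trem2, a lipid-sensing receptor that pairs with Tyrobp, had 46.9 and 32.1 RPKM in the ZnF1 mutant, 16.2 and 12.8 RPKM in the ZnF4 mutant, and 12.4 and 12 RPKM in wt. The 3 groups did not overlap in the adaptors, whose lowest libraries were those of the ZnF4 mutant, whereas wt was lowest in Trem2. The log2 differences of the ZnF1 mutant from wt were 1.44 ± 0.16 for Fcer1g, 1.69 ± 0.17 for Tyrobp and 1.59 ± 0.23 for Trem2 (± SE), each with an adjusted p of 0.0924 in limma without the block and of 0.00410 to 0.00594 with it.

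The receptors themselves were lower than the adaptors on the per-length scale. Fcgr3, the low-affinity receptor FcγRIII, had 24.1 and 34.8 RPKM in the ZnF1 mutant, 8.7 and 13.0 RPKM in the ZnF4 mutant, and 10.5 and 8.4 RPKM in wt. Fcgr4 had 5.8 and 6.2 RPKM in the ZnF1 mutant, 2.5 and 3.9 RPKM in the ZnF4 mutant, and 2.0 and 1.1 RPKM in wt. Fcgr1, the high-affinity receptor, had 2.1 and 3.3 RPKM in the ZnF1 mutant, 2.1 and 2.1 RPKM in the ZnF4 mutant, and 0.8 and 1.2 RPKM in wt. All 3 passed with the block against wt (adjusted p = 0.0177 to 0.0235 in limma). For Fcgr4 and Fcgr1 wt was the lowest group without overlap with the ZnF4 mutant. The coding sequence of Fcgr3 shares 63.4% identity and an unbroken run of 129 identical bases with that of the inhibitory receptor Fcgr2b, so reads in that run could have been split between them, and the level of Fcgr3 is uncertain to that extent.

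Of the growth factor receptors, Csf1r, the receptor for macrophage colony-stimulating factor, had 36.9 and 32.9 RPKM in the ZnF1 mutant, 17.5 and 14.2 RPKM in the ZnF4 mutant, and 13.5 and 12.6 RPKM in wt. All 3 groups were apart, with wt lowest. The log2 difference of the ZnF1 mutant from wt was 1.35 ± 0.17 (± SE), with an adjusted p of 0.0924 in limma without the block and 0.00522 with it. Csf2ra, the ligand-binding chain of the granulocyte-macrophage colony-stimulating factor receptor, behaved differently. It had 41.1 and 27.8 RPKM in the ZnF1 mutant, 26.4 and 15.8 RPKM in the ZnF4 mutant, and 28.6 and 14.3 RPKM in wt, so that every replicate 2 library was below the replicate 1 library of its group and the ZnF1 mutant overlapped wt. Its log2 difference from wt was 0.71 ± 0.42 without the block (adjusted p = 0.785) and 0.71 ± 0.11 with it (adjusted p = 0.0216, limma). The difference ran from 0.23, without wt replicate 2, to 1.19, without wt replicate 1, when 1 library was left out.

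The lysosomal group held the largest summed level of the set, with 1822 and 1632 RPKM in the ZnF1 mutant, 698.8 and 669.6 RPKM in the ZnF4 mutant, and 731.9 and 514.8 RPKM in wt, and all 9 of its genes were higher in both ZnF1 mutant libraries than in the other 4. Ctsd, the aspartyl protease cathepsin D, had 540.2 and 448.5 RPKM in the ZnF1 mutant, 227.5 and 195.1 RPKM in the ZnF4 mutant, and 231.6 and 148.6 RPKM in wt. Gpnmb, a lysosomal glycoprotein that rises in lipid-laden macrophages, had 398.4 and 337.7 RPKM in the ZnF1 mutant, 102.9 and 106.1 RPKM in the ZnF4 mutant, and 127.8 and 75.9 RPKM in wt. Ctsb, a cysteine cathepsin, had 236.9 and 215.1 RPKM in the ZnF1 mutant, 102.0 and 90.6 RPKM in the ZnF4 mutant, and 117.4 and 79.9 RPKM in wt. In each of these the wt pair spread more widely than the ZnF4 mutant pair and enclosed it.

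The other cysteine proteases followed. Ctsl had 179.3 and 172.3 RPKM in the ZnF1 mutant, 57.6 and 84.4 RPKM in the ZnF4 mutant, and 66.8 and 49.5 RPKM in wt. Ctss, which trims the invariant chain of MHC class II, had 148.7 and 182.7 RPKM in the ZnF1 mutant, 67.6 and 85.8 RPKM in the ZnF4 mutant, and 65.4 and 65.1 RPKM in wt. Lgmn, the asparaginyl endopeptidase legumain, had 48.4 and 59.8 RPKM in the ZnF1 mutant, 41.5 and 34.5 RPKM in the ZnF4 mutant, and 28.0 and 25.9 RPKM in wt. Lgmn differed least from the ZnF4 mutant within this group, by 0.50 ± 0.14 on the log2 scale with the block, and was the 1 gene of the 9 that did not pass that comparison in the blocked fit (adjusted p = 0.0511, limma).

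Cd68, a lysosomal membrane glycoprotein used to mark macrophages, had 161.5 and 140.9 RPKM in the ZnF1 mutant, 58.8 and 47.7 RPKM in the ZnF4 mutant, and 55.2 and 45.1 RPKM in wt. Grn, the precursor of the granulins, had 92.3 and 67.5 RPKM in the ZnF1 mutant, 38.1 and 23.0 RPKM in the ZnF4 mutant, and 36.3 and 22.3 RPKM in wt. Slc11a1 (Nramp1), a metal transporter of the phagosome, had 15.8 and 7.6 RPKM in the ZnF1 mutant, 2.8 and 2.4 RPKM in the ZnF4 mutant, and 3.4 and 2.5 RPKM in wt. Within the group the log2 differences of the ZnF1 mutant from wt ran from 0.97 ± 0.18 for Lgmn to 1.89 ± 0.28 for Gpnmb (± SE), with a median of 1.44. All 9 passed with the block (adjusted p = 0.00410 to 0.0189, limma) and none without it, where the lowest adjusted p was 0.0924 and the highest 0.175. Ctsb, Ctsd, Ctsl and Grn overlap other genes in the GENCODE M21 annotation, and the use of strand in counting was not stated in the sources at hand, so their levels are uncertain to that extent; the same holds for Csf1r, Folr2, Itgam and Cx3cr1.

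The secreted group included the widest differences of the set. Lyz2, the lysozyme of myeloid cells, had 357.7 and 426.0 RPKM in the ZnF1 mutant, 119.2 and 148.0 RPKM in the ZnF4 mutant, and 102.2 and 177.8 RPKM in wt. Apoe, the lipid carrier apolipoprotein E, had 161.2 and 85 RPKM in the ZnF1 mutant, 36.8 and 18.7 RPKM in the ZnF4 mutant, and 24.5 and 29.9 RPKM in wt. Mmp9, a gelatinase of macrophages, osteoclasts and neutrophils, had 37.0 and 40.6 RPKM in the ZnF1 mutant, 3.9 and 7.3 RPKM in the ZnF4 mutant, and 8.3 and 9.6 RPKM in wt. Both ZnF1 mutant libraries stood above the rest in all 3, and Mmp9 was lowest in the ZnF4 mutant. The log2 differences of the ZnF1 mutant from wt were 1.53 ± 0.31 for Lyz2, 2.07 ± 0.43 for Apoe and 2.00 ± 0.28 for Mmp9 (± SE), with adjusted p-values of 0.0924 to 0.128 in limma without the block and of 0.00626 to 0.0199 with it. The granulocyte sum, given below, was 3.7 and 1652 RPKM in the ZnF1 mutant libraries, where Mmp9 had 37.0 and 40.6 RPKM. The cell source of Mmp9 was not tested.

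Lyz1, the intestinal lysozyme gene next to Lyz2, had 0.3 and 0.1 RPKM in the ZnF1 mutant, 0.1 and 0.1 RPKM in the ZnF4 mutant, and 0.1 and 0 RPKM in wt. The aligned coding frames of the neighbours are 95.1% identical over 447 bases, with a longest identical run of 118 bases, so reads within such runs could have been assigned to either gene. The stretch below is the 60 bases of the frame in which they differ most, from GENCODE M21 transcripts on mouse chromosome 10, and capitals mark the 9 bases at which they differ.

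Lyz1: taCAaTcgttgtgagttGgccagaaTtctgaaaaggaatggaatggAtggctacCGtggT
Lyz2: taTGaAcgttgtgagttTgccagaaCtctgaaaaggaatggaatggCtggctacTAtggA

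Among the remaining surface and cytoplasmic markers, Lgals3, the lectin galectin-3, had 410.9 and 282.0 RPKM in the ZnF1 mutant, 120.0 and 112.7 RPKM in the ZnF4 mutant, and 181.5 and 65.0 RPKM in wt. Mpeg1, the pore-forming perforin-2, had 38.6 and 37.2 RPKM in the ZnF1 mutant, 8.0 and 11.6 RPKM in the ZnF4 mutant, and 8.5 and 16.3 RPKM in wt. Itgam, the CD11b chain of complement receptor 3, had 20.9 and 34.4 RPKM in the ZnF1 mutant, 6.7 and 11.1 RPKM in the ZnF4 mutant, and 11.2 and 8.7 RPKM in wt. In these 3 the ZnF1 mutant was apart from the rest, and the ZnF4 mutant and wt overlapped. In Lgals3 the wt pair enclosed the ZnF4 mutant pair, and the log2 difference of the ZnF1 mutant from wt, 1.64 with all libraries, was 0.90 without wt replicate 2.

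Emr1 (F4/80) had 19.8 and 24.6 RPKM in the ZnF1 mutant, 7.6 and 8.9 RPKM in the ZnF4 mutant, and 6.8 and 9.3 RPKM in wt. Ms4a7, a membrane protein of macrophages, had 15.7 and 14.7 RPKM in the ZnF1 mutant, 3.3 and 5.1 RPKM in the ZnF4 mutant, and 5.2 and 7.2 RPKM in wt. Aif1, the actin-binding protein Iba1, had 2.9 and 2.5 RPKM in the ZnF1 mutant, 0.8 and 1.3 RPKM in the ZnF4 mutant, and 0.4 and 1.3 RPKM in wt. Each was higher in both ZnF1 mutant libraries than in the other 4, and Ms4a7 was lowest in the ZnF4 mutant. The log2 difference of Aif1 from wt, 1.04 with all libraries, was 0.68 without wt replicate 1. Cd14, the coreceptor for lipopolysaccharide, had 10.2 and 6.4 RPKM in the ZnF1 mutant, 4.0 and 2.9 RPKM in the ZnF4 mutant, and 1.9 and 3.7 RPKM in wt. It was the 1 tested gene of this group that missed the threshold with the block, at a log2 difference of 1.30 ± 0.32 from wt (adjusted p = 0.0601, limma). Over the 7 tested genes of the group the log2 differences from wt were 1.04 to 1.64.

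The libraries of a group also differed from each other. In the 27 genes with a mean of at least 10 RPKM, the replicate 2 to replicate 1 ratio of RPKM had a median of 0.964 in the ZnF1 mutant, 0.983 in the ZnF4 mutant and 0.839 in wt. It ran from 0.527 for Apoe to 4.35 for Mrc1 in the ZnF1 mutant, and from 0.289 for Clec7a to 1.92 for Mpeg1 in wt. Taken within each replicate number, the ZnF1 mutant minus wt difference had a median over the 37 tested genes of 1.22 in replicate 1 and 1.43 in replicate 2, beside 0 over all genes in each. It was above 0 in both replicates in 34 of the 37. The exceptions were Mrc1, Clec7a and Marco.

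**Figure D3:**
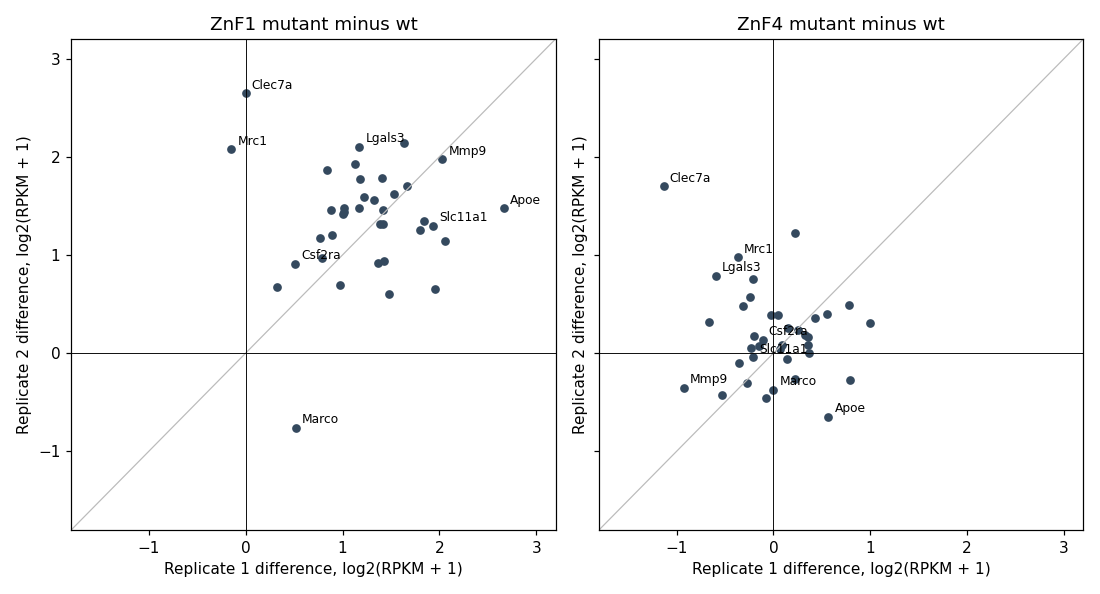
Difference of each tested gene within replicate 1 (horizontal axis) and within replicate 2 (vertical axis) on the log2(RPKM + 1) scale, for the ZnF1 mutant minus wt (left) and the ZnF4 mutant minus wt (right), which share the wt libraries. On the left 34 of the 37 points lie above 0 on both axes, with Mrc1, Clec7a and Marco outside; on the right 13 lie above 0 and 6 below 0 on both axes.

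Between the ZnF4 mutant and wt the same genes did not share a direction, with 24 fitted differences above 0 and 13 below. The fit called 0 of the 37, against 2.72% of all genes. At an unadjusted p under 0.05 there were 4 of the 37, against 1329 of the 11345 genes tested. The median log2 difference was 0.10, beside 0.04 over all genes, with a range from -0.64 ± 0.28 for Mmp9 to 0.72 ± 0.26 for Fcgr4 (± SE). Without wt replicate 1 the median was 0.26. With the block 1 gene rose, Fcgr1 by 0.64 ± 0.14 (adjusted p = 0.0446), and 1 fell, Fcer1g by 0.29 ± 0.07 on the log2 scale (adjusted p = 0.0487, limma), against 8.02% of all genes higher and 7.92% lower. Without ZnF4 mutant replicate 2 the fitted difference of Fcer1g was -0.18. The standard errors of the 27 more abundant genes were 0.16 to 0.72 without the block, and an adjusted p above the threshold does not show that the groups were alike. Both ZnF4 mutant libraries were higher than both wt libraries in 10 of the 37, against 17.8% of all genes, and lower in 4, against 13.8%.

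Between the ZnF1 mutant and the ZnF4 mutant all 37 fitted differences were above 0, with a median of 1.22, beside -0.04 over all genes. The fit called 14 of the 37 higher and 0 lower without the block, against 5.37% of all genes called, 3.75% higher and 1.61% lower. The 14 were C1qb, Mertk, Fcer1g, Tyrobp, Trem2, Csf1r, Ctsb, Ctss, Cd68, Gpnmb, Mmp9, Ms4a7, Emr1 and Mpeg1. Their log2 differences ran from 1.02 ± 0.17 for C1qb to 2.64 ± 0.28 for Mmp9, and the lowest adjusted p was 0.0122, for Tyrobp (limma). With the block 28 were higher, against 19.2% of all genes, and the log2 differences of Csf2ra, 0.70 with all libraries, and C1qa, 0.78, were 0.35 without ZnF4 mutant replicate 2 and 0.47 without ZnF1 mutant replicate 2. All 28 were among the 32 higher than wt in the blocked fit, a comparison that shares the ZnF1 mutant libraries. The calls without the block rested on every library, and most of all on the mutant libraries. Leaving out any 1 library lowered the calls among the 37 and over all genes. Over all genes the calls numbered 0 to 9 without a mutant library, against 609 with all libraries, while the median difference of the 37 stayed at 1.18 to 1.25. Both ZnF1 mutant libraries were higher than both ZnF4 mutant libraries in 31 of the 37, against 21.8% of all genes.

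Markers of other cell types were read in the same libraries. The sum of 15 granulocyte genes was 3.7 and 1652 RPKM in the ZnF1 mutant, 6.7 and 55.2 RPKM in the ZnF4 mutant, and 537.8 and 1.3 RPKM in wt, so it differed between replicates more than between groups. The summed level of the 40 monocyte and macrophage genes was 3421 RPKM in ZnF1 mutant replicate 1, which had few granulocyte transcripts, and 1313 RPKM in wt replicate 1, which had many. It was 3143 RPKM in ZnF1 mutant replicate 2, which had many, and 1034 RPKM in wt replicate 2, which had few. The pair of libraries richest in granulocyte transcripts was ZnF1 mutant replicate 2 and wt replicate 1. Without that pair the median differences of the ZnF1 mutant were 1.18 from the ZnF4 mutant and 1.39 from wt. The spread in that fit comes from the ZnF4 mutant pair alone, so its calls cannot show the part of granulocytes.

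The other marker lists differed in whether their sums were higher in the ZnF1 mutant. The sum of 17 stromal and endothelial genes was 271.6 and 156.8 RPKM in the ZnF1 mutant, 91.2 and 90.6 RPKM in the ZnF4 mutant, and 85.4 and 91.6 RPKM in wt, with Tek at 0 in all libraries and 9 of the 12 tested genes higher than wt with the block and 1 lower, against 10.4% and 2.88% of all genes. Of the 9, 4 passed the level filter only with the ZnF1 mutant libraries. The sum of 9 osteoclast genes, several of which macrophages also express, was 157.4 and 105.5 RPKM in the ZnF1 mutant, 79.4 and 93.4 RPKM in the ZnF4 mutant, and 88.1 and 66.3 RPKM in wt, with the calcitonin receptor gene Calcr at 0. Of its 6 tested genes, 5 had a fitted difference from wt above 0 and 1 below. With the block 1 passed as higher, against 10.4% of all genes, and it was a gene that passed the level filter only with the ZnF1 mutant libraries. The sum of 11 dendritic cell genes was 19.7 and 22.1 RPKM in the ZnF1 mutant, 8.6 and 9.5 RPKM in the ZnF4 mutant, and 9.5 and 4.8 RPKM in wt. Of these, 8 were below 1 RPKM in every library, and Xcr1 and Cd209a were at 0. The mast cell and basophil sum was 0.5 and 8.1 RPKM in the ZnF1 mutant, 5.8 and 4.3 RPKM in the ZnF4 mutant, and 23.8 and 0.4 RPKM in wt, and the eosinophil sum was at most 10.6 RPKM in any library. The T and NK cell sum was 55.7 and 29.6 RPKM in the ZnF1 mutant, 19.8 and 22.1 RPKM in the ZnF4 mutant, and 50.6 and 28.5 RPKM in wt. The erythroid sum was 114.1 and 155.8 RPKM in the ZnF1 mutant, 94.7 and 146.4 RPKM in the ZnF4 mutant, and 120.5 and 118.5 RPKM in wt. Below 1 RPKM in every library were 5 of the 9 mast cell and basophil genes and 2 of the 8 eosinophil genes. The same held for 9 of the 13 T and NK cell genes and 7 of the 10 erythroid genes, so these sums rest on few genes. Hbb-b1 and Hbb-b2 passed the level filter only with the ZnF1 mutant libraries. In these last 4 lists the ZnF1 mutant overlapped wt. Between the ZnF1 mutant and wt, 4 of the 14 B-lineage genes were higher with the block and 0 lower, against the same 10.4% and 2.88% of all genes. The part of these cell types in the differences of the monocyte and macrophage genes was not tested.

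**Figure D4:**
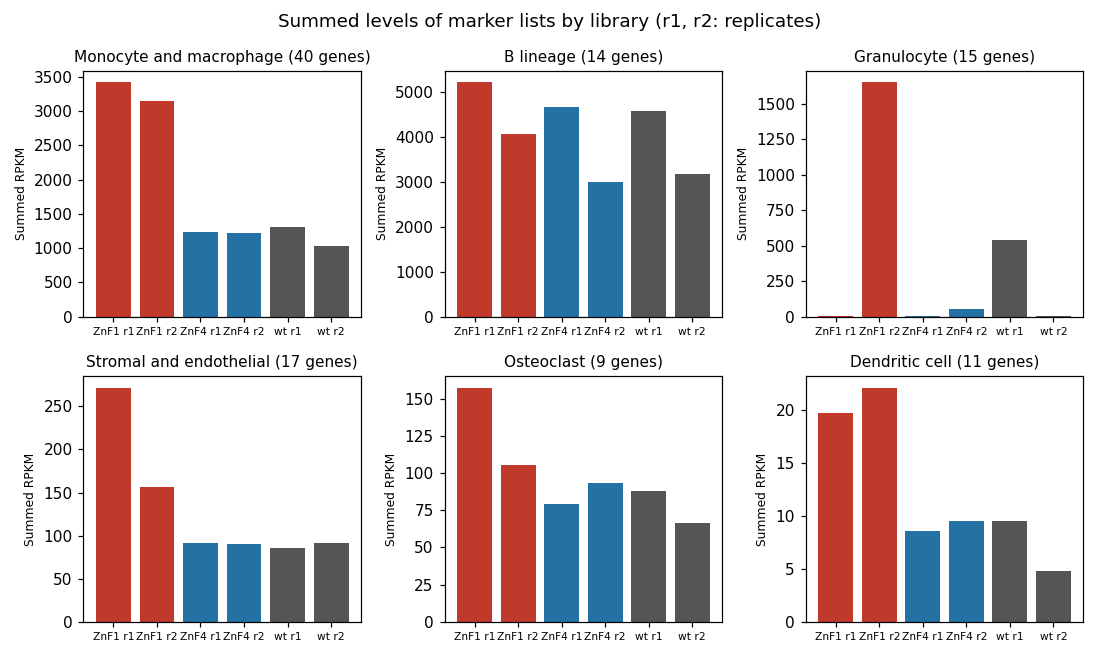
Summed RPKM of the 40 monocyte and macrophage genes and of 5 lists of marker genes of other cells, 1 bar for each library, with separate vertical axes that start at 0. The monocyte and macrophage sum is highest in both ZnF1 mutant libraries (3421 and 3143 RPKM), and the granulocyte sum is high in ZnF1 mutant replicate 2 (1652 RPKM) and wt replicate 1 (537.8 RPKM).

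Further genes of the same pathways were taken from 6 other lists. In the ZnF1 mutant minus wt comparison the fit without the block called 0 genes in each of them, with the lowest adjusted p at 0.0924 in limma, and the counts below are those with the replicate block. Of the 14 transcription factors of monocytes and macrophages, 10 rose and 0 fell, against 10.4% of all genes higher and 2.88% lower, the shares that also stand beside the counts of the other lists, and the median log2 difference over the list was 0.79. Of the 14, 3 reached 1 RPKM in 2 libraries only with the help of the ZnF1 mutant libraries, and 2 of these, Mitf and Batf3, are among the 10 that rose. The 3 with the lowest p were Tcfec (Tfec), Mitf and Batf3. Tcfec, a relative of Mitf expressed in macrophages, had 5.8 and 6.0 RPKM in the ZnF1 mutant, 0.9 and 1.8 RPKM in the ZnF4 mutant, and 1.4 and 0.9 RPKM in wt. Mitf, a regulator of lysosomal and osteoclast genes, had 1.8 and 2.2 RPKM in the ZnF1 mutant, 0.9 and 1.0 RPKM in the ZnF4 mutant, and 0.9 and 0.8 RPKM in wt, and Batf3 reached at most 1.1 RPKM. In Tcfec, which passed the level filter also without the ZnF1 mutant, the ZnF1 mutant did not overlap the other groups.

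Of 16 partners of Csf1 receptor and Fc receptor signalling, 14 were tested, and 8 rose and 0 fell, 1 of the 8 being a gene that passed the level filter only with the ZnF1 mutant libraries. Sirpa, the inhibitory receptor for CD47, had 52.6 and 59.4 RPKM in the ZnF1 mutant, 23.1 and 22.8 RPKM in the ZnF4 mutant, and 20.6 and 20.6 RPKM in wt. Lilrb3 (PirB), an inhibitory receptor for MHC class I, had 4.9 and 4.9 RPKM in the ZnF1 mutant, 1.2 and 1.2 RPKM in the ZnF4 mutant, and 1.5 and 1.6 RPKM in wt. Both separated the ZnF1 mutant from the other groups. In the ZnF4 mutant minus wt comparison 4 of this list fell and 0 rose with the block, against 7.92% of all genes lower.

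Of 25 further macrophage surface and uptake genes, 20 were tested, and 11 rose and 0 fell, 1 of the 11 being a gene that passed the level filter only with the ZnF1 mutant libraries. Fcgr2b, the inhibitory Fc receptor that B cells also express, had 53.7 and 57.9 RPKM in the ZnF1 mutant, 27.9 and 28.1 RPKM in the ZnF4 mutant, and 16.9 and 15.6 RPKM in wt. Gas6, the ligand that bridges Mertk to dying cells, had 7.0 and 7.2 RPKM in the ZnF1 mutant, 5.9 and 4.6 RPKM in the ZnF4 mutant, and 2.4 and 2.4 RPKM in wt. Pld4, an endolysosomal nuclease, had 106.7 and 83.5 RPKM in the ZnF1 mutant, 39.8 and 27.3 RPKM in the ZnF4 mutant, and 35.9 and 25.8 RPKM in wt. Fcgr2b and Gas6 were the genes of these 3 that were also higher in the ZnF4 mutant than in wt with the block (adjusted p = 0.00561 and 0.00968, limma), by 0.75 and 0.87 on the log2 scale.

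Of 25 further lysosome genes, 17 rose and 0 fell, with a median log2 difference of 0.68, and all 25 fitted differences were above 0. Hexa, a subunit of beta-hexosaminidase, had 37.6 and 31.5 RPKM in the ZnF1 mutant, 9.8 and 9.0 RPKM in the ZnF4 mutant, and 13.8 and 10.7 RPKM in wt. Ctsh, cathepsin H, had 10.4 and 9.0 RPKM in the ZnF1 mutant, 4.4 and 4.2 RPKM in the ZnF4 mutant, and 3.4 and 2.1 RPKM in wt. Lipa, the lysosomal acid lipase, had 79.0 and 64.3 RPKM in the ZnF1 mutant, 31.0 and 36.4 RPKM in the ZnF4 mutant, and 34.6 and 32.0 RPKM in wt. The ZnF1 mutant was apart in each of the 3, while in the ZnF4 mutant minus wt comparison the list was divided, with 7 of the 25 genes higher and 4 lower with the block, against 8.02% and 7.92% of all genes.

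Of 15 further complement genes and receptors, 7 were tested, and 4 rose and 0 fell, among them Cfp (properdin) with 33.9 and 37.6 RPKM in the ZnF1 mutant, 12.4 and 12.3 RPKM in the ZnF4 mutant, and 16.2 and 11.8 RPKM in wt. The anaphylatoxin receptor C3ar1 had 24.6 and 29.9 RPKM in the ZnF1 mutant, 9.2 and 13.9 RPKM in the ZnF4 mutant, and 9.0 and 9.1 RPKM in wt. C5ar1, the receptor for C5a, had 48.5 and 30.3 RPKM in the ZnF1 mutant, 18.8 and 14.8 RPKM in the ZnF4 mutant, and 13.8 and 15.5 RPKM in wt. All 3 lay above the other 4 libraries in both ZnF1 mutant libraries.

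Of 22 chemokines and cytokines, 15 were tested, and 3 rose and 0 fell, against 10.4% of all genes higher. They were Spp1, Il1rn and Ccl9. Spp1 (osteopontin), a secreted adhesive protein of macrophages, osteoclasts and matrix-forming cells, had 556.5 and 488.0 RPKM in the ZnF1 mutant, 180.6 and 285.9 RPKM in the ZnF4 mutant, and 143.1 and 228.4 RPKM in wt. Il1rn, the antagonist of the interleukin-1 receptor, had 10.1 and 10.5 RPKM in the ZnF1 mutant, 2.2 and 3.1 RPKM in the ZnF4 mutant, and 4.3 and 2.5 RPKM in wt. Ccl9, a chemokine of myeloid cells, had 29.3 and 36.8 RPKM in the ZnF1 mutant, 8.2 and 16.2 RPKM in the ZnF4 mutant, and 13.6 and 9.9 RPKM in wt. In each the ZnF4 mutant and wt overlapped.

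**Figure D5:**
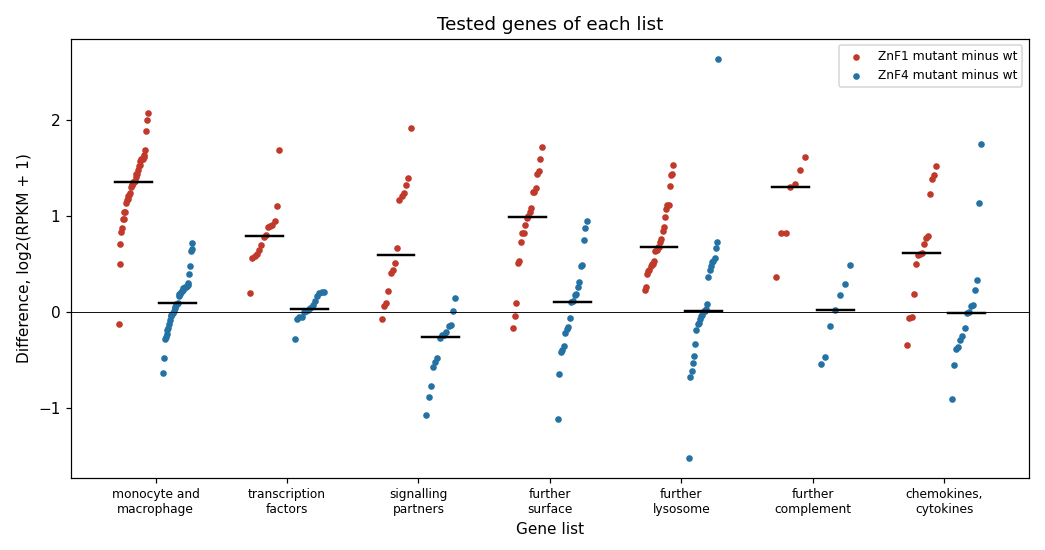
Fitted differences on the log2(RPKM + 1) scale of the tested genes in the monocyte and macrophage set and in the 6 other lists, for the ZnF1 mutant minus wt (red, left) and the ZnF4 mutant minus wt (blue, right), with the list median as a black line; both comparisons share the wt libraries. The red medians are 1.35 for the set and 0.59 to 1.31 for the other lists, beside -0.01 over all genes tested.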

How the data were processed

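Polyadenylated RNA of 6 cultures was sequenced, 2 biological replicates in each of 3 groups per the labels. The authors deposited RPKM per RefSeq transcript, per the file headers, and TopHat, bedtools and the mouse build mm9 are listed, unversioned, in the submitters' processing notes. The handling of shared reads and of strand was not given in the sources used here. Depth is unknown, since values are rounded to 0.1, so counting intervals are left out. Summed RPKM was 287007 to 345766, and 10582 to 11119 genes had at least 1 RPKM per library.

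The 26531 rows were summed by symbol (39 of 40 symbols altered to numbers by a spreadsheet were restored, and 1 row without a gene was left out). Genes with at least 1 RPKM in 2 libraries, 11345, were tested on log2(RPKM + 1), which understates the change of low genes, with limma 3.58.1 (R 4.3.3) in 1 fit of 3 group means, in both directions. With 2 libraries a group, p-values reflect only how those libraries vary. Same-numbered libraries deviated together (correlation of deviations from group means over genes 0.5 for ZnF1 mutant with wt, 0.754 for ZnF4 mutant with wt and 0.715 for the mutants), so the replicate number was taken as a pairing found in the data, and blocked values stand beside the results. Alternatives were another pseudocount, other filters, median-ratio scaling, the highest row per symbol, 4-library fits and leaving out libraries.

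The members and all lists were chosen with earlier results of these data known. A member is given in every library where its mean is at least 10 RPKM, where it passed in any fit, or at the end of its role group; in other lists the 3 genes with the lowest p were named, except 1 that is not reported here. Cd14, Siglec1 and Marco were added after their values were seen. Coding frames (the longest open reading frame of GENCODE M21 transcripts) were aligned with Biopython 1.88, and motifs were searched as exact letters in RefSeq promoters, whose build differs from that of the RPKM values.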

Additional observations from a re-analysis of the deposited data

How the results depend on the processing

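All 37 tested genes kept their direction between the ZnF1 mutant and wt wherever they were tested under the pseudocount of 0.1, both filters, both row choices, median-ratio scaling, the 4-library fit and the fit without the granulocyte-rich pair. With the replicate block 1502 genes and 32 members passed for the ZnF1 mutant against wt, 1809 and 2 for the ZnF4 mutant against wt, and 3979 and 28 for the ZnF1 mutant against the ZnF4 mutant; other blocked calls are beside their results. A filter of at least 5 RPKM left 176 genes for the ZnF4 mutant against wt and 323 for the ZnF1 mutant against the ZnF4 mutant, and 4-library fits left 86, and 234 with 6 members. Without a filter 574 of 15211 genes and 8 of 40 members passed for the ZnF1 mutant against the ZnF4 mutant. The fit without ZnF1 mutant replicate 2 and wt replicate 1 takes its spread from the ZnF4 mutant pair alone, so only its differences are given. The median in the ZnF4 mutant against wt was then 0.26. The sign turned for Ctsb (0.26), Slc11a1 (0.038), Emr1 (-0.16), Cd14 (-0.09) and Aif1 (-0.18) in that comparison. It also turned for Mrc1 (-0.34) in the ZnF1 mutant against the ZnF4 mutant. Median-ratio scaling turned Csf2ra in the ZnF4 mutant against wt to -0.0236. The cause of these changes was not tested.

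When 1 library was left out, the lone library was taken to vary like the other groups. Genes passing were then 0 to 88 for the ZnF4 mutant against wt and 0 to 262 for the ZnF1 mutant against the ZnF4 mutant, with 0 to 7 members, and the median of the members in the ZnF4 mutant against wt was 0.062 to 0.26. Signs that turned are given as ranges. In the ZnF1 mutant against wt they were -0.45 to 0.20 for Marco and -0.034 to 1.96 for Mrc1. In the ZnF1 mutant against the ZnF4 mutant they were -0.25 to 0.37 for Marco and -0.34 to 1.66 for Mrc1. In the ZnF4 mutant against wt they were -0.18 to 0.54 for Aif1, -0.51 to 0.43 for Apoe, -0.09 to 0.61 for Cd14, -0.064 to 0.23 for Cd68, -0.51 to 1.08 for Clec7a, -0.46 to 0.49 for Csf2ra, -0.29 to 0.26 for Ctsb, -0.14 to 0.50 for Ctsd, -0.16 to 0.24 for Emr1, -0.10 to 0.43 for Fcgr3 and -0.29 to 0.46 for Gpnmb. They were also -0.30 to 0.41 for Grn, -0.50 to 0.15 for Itgam, -0.64 to 0.83 for Lgals3, -0.42 to 0.37 for Lyz2, -0.51 to 0.14 for Marco, -0.11 to 0.035 for Mertk, -0.70 to 0.16 for Mpeg1, -0.25 to 0.86 for Mrc1, -0.49 to 0.31 for Msr1 and -0.29 to 0.038 for Slc11a1. Rounding of the RPKM values limits genes near 1 RPKM.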
